A study of Mus musculus with 11 samples.

Results

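A set of 9 genes of the rod and cone outer segment, out of 47069 genes in the count tables, was followed through mouse retinas at 2 ages and of 2 genotypes. They were chosen by symbol for the part their proteins play in the outer segment: Prph2, Rom1, Prom1 and Cdhr1 in its discs, Rp1 and Rp1l1 on its axoneme, Tulp1 in transport to it, and Impg1 and Impg2 in the matrix around it. Each symbol matched 1 Ensembl ID, and all 9 passed the filter on low counts. The study compared the retinal RNA of C57BL/6 mice labelled wild type with that of Brn3b-Kir2.1 mice by RNA sequencing. Brn3b-Kir2.1 mice, called Kir2.1 below, carried Brn3b-Cre, a driver for ganglion cells of the retina, and a transgene of human Kir2.1 cDNA joined to eYFP behind a CAG promoter and a floxed stop cassette. The 11 libraries were 2 wild-type and 3 Kir2.1 libraries at postnatal day 4 (P4) and 3 of each genotype at postnatal day 8 (P8). The labels disagree on 3 points: the protocol gives P11 for the later age, it names Brn3b-cre mice as the controls, and the source field names ganglion cells while the protocol describes dissociated whole retina with no sorting step. The age and genotype fields are used here. The number of animals behind a library was not stated, so the p-values measure only the spread between these libraries.

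Photoreceptors build the outer segment, a stack of membrane discs that holds the phototransduction proteins, from the tip of a modified cilium during the early postnatal weeks in mice. Each disc is bent at its rim by complexes of peripherin-2 and ROM1, new discs are shaped at the base of the stack with the help of prominin-1 and a photoreceptor cadherin, and an axoneme of microtubules runs along the stack. The space around it is filled by a matrix of proteoglycans that lies against the pigment epithelium. Changes in many of these genes cause retinal degeneration in humans. Ganglion cells, the targets of the transgene, do not make outer segments.

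Counts assigned to genes ranged from 9362215 to 12478838 per library. Levels are given as CPM (counts-per-million), scaled by TMM, with scaling factors from 0.964 to 1.05. Kcnj2, the mouse gene for Kir2.1, was at 2.46 to 6.42 CPM in the Kir2.1 P4 libraries against 5.81 and 10.6 CPM in wild type, and at 4.91 to 17.1 CPM against 3.74 to 17.2 CPM at P8. It does not check the labels, since the transgene is a human cDNA. The 12 ganglion cell markers were all detected, with summed levels of 263 to 1417 CPM at P4 and 173 to 299.7 CPM at P8, and the 12 rod phototransduction genes summed to 802 to 1786 CPM at P4. A pair of libraries stood apart from others of their age in these markers, and another in its quality. Wild-type P4 replicate 2 had the highest level of its age for 12 of 12 rod genes, 10 of 10 bipolar cell markers (446 CPM in sum against 126 to 182 CPM) and 7 of the 9 outer segment genes, and the lowest for 10 of 10 genes of dividing cells (949 against 2138 to 2688 CPM). Wild-type P8 replicate 1 had the lowest level of its age for all 9 outer segment genes, 12 of 12 rod genes and 10 of 10 bipolar markers (571 against 984 to 1577 CPM), and its amacrine markers summed to 4079.7 CPM against 1380 to 2962 CPM. Kir2.1 P8 replicate 2 had the fewest gene counts, 69.4% of its uniquely aligned records in no gene against 57.0% to 62.4% in the other 10 libraries, and counts in 31325 genes against 22609 to 24591, and its pigment epithelium markers summed to 33.4 CPM, compared with at most 12.9 CPM in any other library of that age.

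Since the 9 genes moved together with age, the DNA before their starts was read from RefSeq (GRCm38.p6), which held windows for 7 of them. Rp1 and Rp1l1 were not in that table. The stretches below lie directly before the start of transcription, on each gene's own strand. They hold 250 bases for Rom1 and Impg2, and 231 for Prph2 and 207 for Impg1, where the GENCODE start lies before that of RefSeq. They are shown for the pair of disc rim genes and for the pair of matrix genes, whose ratio of levels moved far more between libraries. Capitals mark TAAT or its reverse complement ATTA, the core that homeodomain factors of photoreceptors bind. The stretches are chr17:46910228-46910458 on the plus strand for Prph2, chr19:8929357-8929606 on the minus strand for Rom1, chr9:80465482-80465688 on the minus strand for Impg1 and chr16:56204063-56204312 on the plus strand for Impg2.
Prph2: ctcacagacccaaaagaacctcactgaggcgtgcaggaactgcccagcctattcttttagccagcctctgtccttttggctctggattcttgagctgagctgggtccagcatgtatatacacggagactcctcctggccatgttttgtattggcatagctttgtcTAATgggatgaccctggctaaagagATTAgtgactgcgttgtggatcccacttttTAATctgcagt
Rom1: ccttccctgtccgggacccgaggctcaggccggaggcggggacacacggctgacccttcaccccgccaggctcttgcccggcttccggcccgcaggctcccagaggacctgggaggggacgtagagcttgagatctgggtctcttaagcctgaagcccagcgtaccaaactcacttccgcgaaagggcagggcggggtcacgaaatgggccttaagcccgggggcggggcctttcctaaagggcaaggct
Impg1: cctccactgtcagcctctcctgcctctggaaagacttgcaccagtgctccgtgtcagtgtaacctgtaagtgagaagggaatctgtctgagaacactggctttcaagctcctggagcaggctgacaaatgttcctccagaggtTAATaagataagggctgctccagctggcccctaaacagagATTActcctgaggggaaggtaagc
Impg2: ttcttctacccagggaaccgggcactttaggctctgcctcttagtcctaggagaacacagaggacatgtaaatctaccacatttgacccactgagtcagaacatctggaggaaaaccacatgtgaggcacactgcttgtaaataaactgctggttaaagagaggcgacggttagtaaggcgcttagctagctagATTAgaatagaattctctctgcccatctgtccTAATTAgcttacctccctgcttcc
The Prph2 stretch held 3 such matches, Rom1 0, Impg1 2 and Impg2 3. Over the full 250 bases before the RefSeq start, TAAT occurred on either strand in 6 of the 8 RefSeq windows of the 7 genes (Prom1 has a pair of windows), those of Cdhr1, Impg1, Impg2, Prom1 and Prph2, against 54.9% of all 32851 RefSeq windows. The longer letters TAATCC, which contain TAAT and are preferred by CRX, the homeodomain factor that turns on photoreceptor genes, occurred in 0 of 8, against 6.25% of windows. TGCTGA, part of the sequence bound by the rod factor NRL, occurred in 0 of 8, against 16.1% of windows. These counts describe letters in a window and not binding.

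All 9 genes rose between P4 and P8 in Kir2.1 retinas. The smallest change was 3.57-fold for Tulp1 and the largest 22.7-fold for Impg1, with Prph2, Rp1 and Rom1 between 8.19-fold and 10.6-fold and the other 4 genes between 4.50-fold and 5.46-fold. The 3 Kir2.1 P8 libraries were all above the 3 Kir2.1 P4 libraries for every gene. In wild type the same 9 genes had P8 means above their P4 means, but the libraries of 1 age spread so widely that the ages overlapped for every gene. A level in a whole retina is the number of cells times the RNA per cell, and these cannot be told apart here.

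**Figure D1:**
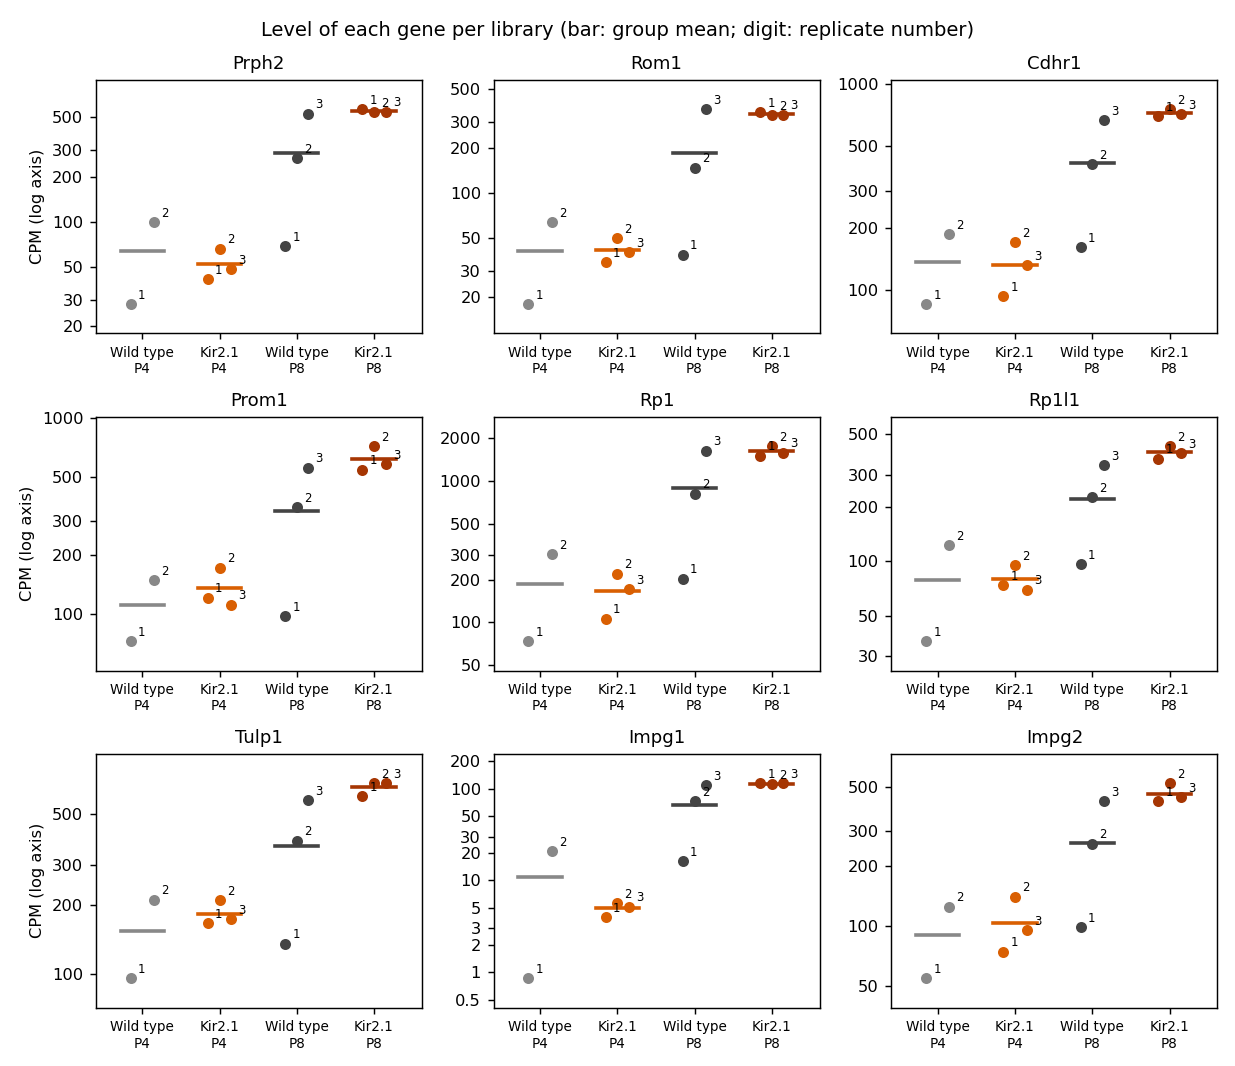
CPM of each of the 9 genes in each of the 11 libraries on a log axis, with a bar at the group mean and the replicate number beside each point. The Kir2.1 P8 points lie close together and above both P4 groups, while wild-type P8 replicate 1 lies within the P4 range of each gene.

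Prph2 encodes peripherin-2, the tetraspanin that bends the disc rim (chr17:46910459-46924933, plus strand, GENCODE M21 on GRCm38). In the order of their replicate numbers, the wild-type P4 libraries held Prph2 at 28.1 and 99.3 CPM and the Kir2.1 P4 libraries at 41.4, 66.0 and 48.3 CPM. The P8 levels were 68.8, 265 and 527 CPM in wild type and 566, 540.0 and 544 CPM in Kir2.1. The level in wild-type P8 replicate 1 was below that in wild-type P4 replicate 2, and the lowest Kir2.1 P8 library was above the highest wild-type P8 library. From P4 to P8 Prph2 rose in Kir2.1 by 3.40 ± 0.61 on the log2 scale (SE, adjusted p = 0.00306, edgeR). Rom1, the tetraspanin partner of peripherin-2 (chr19:8927391-8929356, minus strand), was at 17.9 and 63.4 CPM in wild-type P4 and at 34.2, 49.4 and 39.8 CPM in Kir2.1 P4. It was at 38.3, 148 and 365 CPM in wild-type P8 and at 346, 331 and 334 CPM in Kir2.1 P8, so that at P8 the wild-type values spread over both sides of the Kir2.1 values. Its rise in Kir2.1 was 3.03 ± 0.64 (adjusted p = 0.00706, edgeR). The count of Prph2 reads per Rom1 read was 1.57 in both wild-type P4 libraries and 1.63 in each of the 3 Kir2.1 P8 libraries. It was lower in the Kir2.1 P4 libraries, at 1.21, 1.34 and 1.21, and lay at 1.80, 1.80 and 1.44 in wild-type P8. So the ratio moved over a range of 1.21 to 1.80 while Rom1 itself moved from 17.9 to 365 CPM.

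Prom1 encodes prominin-1, a membrane protein of the growing discs that is also made in other cells (chr5:43993620-44102032, minus strand). It was at 72.8 and 149 CPM in wild-type P4, at 121, 173 and 112 CPM in Kir2.1 P4, at 98.0, 352 and 558 CPM in wild-type P8 and at 546, 719.8 and 583 CPM in Kir2.1 P8. Wild-type P8 replicate 1 was lower than 4 of the 5 P4 libraries. The rise in Kir2.1 was 2.19 ± 0.48 (adjusted p = 0.00854, edgeR). Gm42716 on the same strand, at 7.42 to 63.5 CPM, and Gm16401 on the other, at 0.279 to 2.99 CPM, overlap the span of Prom1. That span includes introns, and an overlap of exons was not examined. The strand setting of the counting is not given in the sources used here, so whether any of their reads were mixed is not known. Cdhr1, the photoreceptor cadherin at the base of the outer segment (chr14:37077857-37098347, minus strand), was at 85.1 and 186 CPM in wild-type P4 and at 93.2, 170.1 and 132 CPM in Kir2.1 P4. At P8 its levels were 161, 407 and 665 CPM in wild type and 694, 754 and 709 CPM in Kir2.1. All 3 Kir2.1 P8 libraries were above all wild-type P8 libraries, and the rise with age in Kir2.1 was 2.45 ± 0.43 (adjusted p = 0.00279, edgeR).

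Rp1 encodes a microtubule-binding protein of the axoneme with doublecortin domains (chr1:3999557-4409241, minus strand). It had the highest CPM of the 9 genes in every P8 library, and with 12311 bases the longest exons, which CPM do not take into account. Its levels were 73.4 and 303 CPM in wild-type P4, 106, 221 and 172 CPM in Kir2.1 P4, 203, 813 and 1641 CPM in wild-type P8 and 1509, 1763 and 1585 CPM in Kir2.1 P8. Wild-type P8 replicate 1 again lay inside the P4 range, and wild-type P8 replicate 3 inside the Kir2.1 P8 range. The rise in Kir2.1 was 3.28 ± 0.66 (adjusted p = 0.00533, edgeR). Gm6101 and Gm37483 overlap Rp1 on its strand, at 0.855 to 45.0 CPM and at most 0.313 CPM. Rp1l1, the relative of Rp1 that acts on the same axoneme (chr14:63992506-64035025, plus strand), was at 36.2 and 122 CPM in wild-type P4, at 73.8, 95.2 and 69.6 CPM in Kir2.1 P4, at 95.9, 225 and 337 CPM in wild-type P8 and at 368, 431 and 395 CPM in Kir2.1 P8. Its groups did not overlap at P8, and its rise in Kir2.1 was 2.32 ± 0.44 (adjusted p = 0.00425, edgeR). Rp1 reads per Rp1l1 read numbered 1.44 to 2.48 over the 5 P4 libraries and 4.02 to 4.10 over the 3 Kir2.1 P8 libraries, with 2.12, 3.60 and 4.86 in wild-type P8. The axoneme pair thus kept no fixed ratio across the ages, and wild-type P8 replicate 1 had a ratio inside the P4 range.

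Tulp1, a tubby-like protein needed to carry proteins to the outer segment (chr17:28351515-28365222, minus strand), was at 95.2 and 211 CPM in wild-type P4 and at 166, 209 and 173 CPM in Kir2.1 P4. It was at 135, 381 and 573 CPM in wild-type P8 and at 597, 681 and 680.4 CPM in Kir2.1 P8. Wild-type P8 replicate 1 was below 4 of the 5 P4 libraries, and the Kir2.1 P8 libraries were all above the wild-type P8 libraries. Tulp1 had the smallest rise of the 9 genes in Kir2.1, 1.84 ± 0.41 (adjusted p = 0.00965, edgeR). Without Kir2.1 P4 replicate 1 its change was 1.75 with an adjusted p of 0.0509 in edgeR, past the threshold of 0.05.

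Impg1 and Impg2 encode proteoglycans of the matrix between photoreceptors, of which IMPG2 spans the membrane. Impg1 (chr9:80313330-80465481, minus strand) was the least abundant of the 9, at 0.855 and 20.9 CPM in wild-type P4 and at 4.00, 5.68 and 5.16 CPM in Kir2.1 P4. The first of these rested on 10 reads and the other 4 on 43 to 247 reads. Its P8 levels were 16.2, 72.6 and 108 CPM in wild type and 114, 111 and 114 CPM in Kir2.1. It changed more with age in Kir2.1 than any of the other 8, by 4.50 ± 0.82 (adjusted p = 0.00341, edgeR), and wild-type P4 replicate 2 was above wild-type P8 replicate 1. Impg2 (chr16:56204313-56273756, plus strand) was at 54.3 and 125 CPM in wild-type P4, at 74.1, 140.2 and 94.9 CPM in Kir2.1 P4, at 98.3, 259.9 and 426 CPM in wild-type P8 and at 424, 523 and 445 CPM in Kir2.1 P8. At P8 wild-type replicate 3 lay just inside the Kir2.1 range, and the rise in Kir2.1 was 2.17 ± 0.45 (adjusted p = 0.00650, edgeR). Impg2 reads per Impg1 read numbered 63.5 and 5.98 in wild-type P4 and 18.5, 24.7 and 18.4 in Kir2.1 P4. They numbered 6.06, 3.58 and 3.92 in wild-type P8 and 3.73, 4.71 and 3.90 in Kir2.1 P8. The matrix pair was therefore the most uneven of the 3 pairs, with Impg2 far in excess at P4 in all libraries but wild-type P4 replicate 2, whose ratio was close to that of wild-type P8 replicate 1.

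With age in Kir2.1, 9 of 9 genes passed the test and all were higher, where 16.7% of all 18188 genes tested passed in either direction and 7.93% were higher. For 9 of 9 every P8 library lay above every P4 library, against 19.4% of all genes. The median of the 9 changes was 2.45, against 0.00 over all genes. Without Kir2.1 P8 replicate 2 it was 2.41, and 9 of 9 passed where 11.2% of all genes did. In wild type the changes were positive for all 9 (52.6% of all genes) and ran from 1.25 for Tulp1 to 2.59 for Impg1, with a median of 1.60 against 0.03 over all genes. None of the 9 passed in edgeR (adjusted p from 0.0912 to 0.160), where 4.39% of all genes passed and 0.803% were higher, and all 9 had an unadjusted p under 0.05, as did 19.6% of all genes. The wild-type ages overlapped for all 9, whereas 14.2% of all genes had every P8 library above every P4 library. DESeq2 called 2 of the 9, where it called 8.86% of all genes, Rp1 (adjusted p = 0.039) and Cdhr1 (adjusted p = 0.0395). The count in wild type changed with the libraries kept: 9 of 9 passed without wild-type P8 replicate 1, where 7.19% of all genes did, and 5 of 9 without wild-type P4 replicate 2, where 6.76% did. Without that P4 library 1 wild-type P4 library was left, which the fit assumes to vary like the libraries of the other groups. The count at an unadjusted p under 0.05 fell to 1 of 9 without wild-type P4 replicate 1, against 7.22% of all genes, with 0 of 9 passing and a median of 1.17. It fell to 4 of 9 with only the wild-type groups fitted, against 13.5% of all genes, and to 6 of 9 when wild-type P8 replicate 3 was left out, against 19.3%. Leaving out wild-type P8 replicate 1 raised the median of the 9 wild-type changes to 2.02, leaving out wild-type P4 replicate 2 raised it to 2.60, leaving out wild-type P8 replicate 3 lowered it to 1.07, and over all libraries left out in turn the change ran from 0.75 to 1.93 for Tulp1 and from 1.65 to 6.25 for Impg1. With all 11 libraries but no filter on low counts, 9 of 9 passed, where 5.63% of all genes did. Averaged over genotypes, 9 of 9 rose, by 1.54 for Tulp1 to 3.55 for Impg1 (adjusted p from 0.00104 to 0.00385, edgeR), where 22.8% of all genes passed and 10.7% were higher. Leaving out 1 library at a time gave 3.08 to 5.38 for Impg1, the highest of these without wild-type P4 replicate 2.

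At P8, the 9 genes were higher in the mean of the Kir2.1 libraries than in wild type by a like amount, from 1.72-fold for Impg1 to 1.92-fold for Prph2, and none passed the test. On the log2 scale the differences ran from 0.78 ± 0.69 for Impg1 to 0.94 ± 0.56 for Prph2, with a median of 0.86 against 0.00 over all genes and 9 of 9 positive against 50.5% of all genes. The 95% intervals ran from -0.02 to 1.71 for Tulp1, the closest to the threshold, and from -0.71 to 2.27 for Impg1, the farthest. edgeR called 0 of the 9 and 0.0% of all genes in this comparison, and DESeq2 called 0 of the 9 and 1 other gene (0.00274%). The unadjusted p of the 9 in edgeR ran from 0.0553 to 0.278 (adjusted p from 0.699 to 0.782). None of the 9 was under an unadjusted 0.05, against 6.82% of all genes. Prph2, Rp1l1, Cdhr1, Tulp1 and Impg1 had no overlap between the genotypes, which makes 5 of 9, against 5.5% of all genes in that direction. All 9 were lowest in wild-type P8 replicate 1. The highest wild-type P8 level was 3.52 times the lowest for Rp1l1 and 9.54 times for Rom1, whereas in Kir2.1 P8 it was 1.03 times for Impg1 to 1.32 times for Prom1. Without wild-type P8 replicate 1 the median difference was 0.43, and without wild-type P8 replicate 3 it was 1.37, with 0 of 9 passing either time and 0.0% and 1.21% of all genes passing. Without replicate 3, 8 of 9 had an unadjusted p under 0.05, against 19.8% of all genes. Marker lists of other cells also differed in the mean at P8. All 10 amacrine markers had lower values in Kir2.1 (median -0.47), with sums of 4079.7, 2962 and 1679 CPM in wild type and 2088, 1380 and 2243 CPM in Kir2.1, and ganglion cell markers were lower for 10 of 12 (median -0.17). Microglial markers were higher for 10 of 10 (median 0.39), pigment epithelium markers for 6 of 7 tested (median 2.28), vascular markers for 8 of 10 (median 0.29), genes of dividing cells for 8 of 10 (median 0.32), bipolar markers for 8 of 10 (median 0.18), Mueller glia markers for 8 of 10 (median 0.15) and horizontal cell markers for 3 of 5 (median 0.19). The pigment epithelium sums were 12.9, 12.2 and 7.65 CPM in wild type and 11.1, 33.4 and 11.9 CPM in Kir2.1, so that replicate 2 alone lay above the wild-type range. None of these genes passed in edgeR. The part of these cells in the difference of the 9 genes was not tested. Without the filter on low counts edgeR called all 9 (adjusted p from 2.42e-08 to 0.00117), where 1.22% of all genes passed. In that fit the prior degrees of freedom were infinite, so a gene's own spread between libraries did not enter its test, whereas they were 5.055 in the filtered fit.

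**Figure D2:**
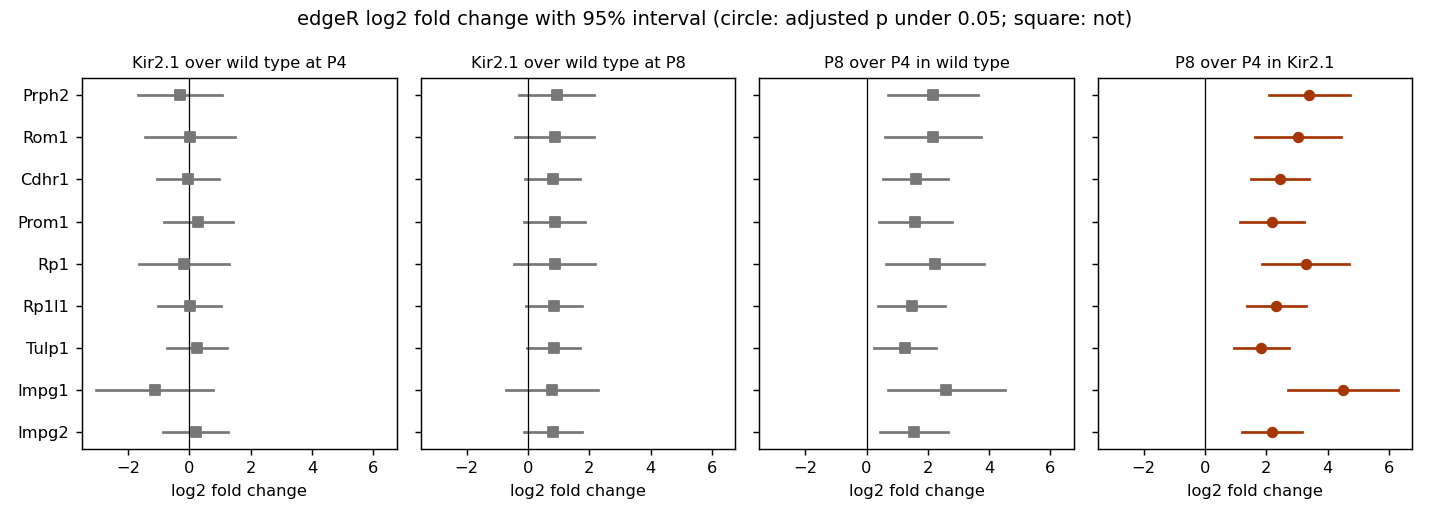
Log2 fold change of each of the 9 genes in each comparison, with bars for the 95% interval computed from the edgeR fit. Circles mark an adjusted p under 0.05 and squares the rest, with a line at 0. Every interval of the age comparisons lies above 0, and all those of the genotype comparisons include 0.

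At P4, the genotypes overlapped for all 9 genes, while 12.4% of all genes had the Kir2.1 libraries above the wild-type ones. Of the differences, 5 were positive (5 of 9, against 51.3% of all genes), and their median was 0.01, as it was over all genes. They ran from -1.13 ± 0.87 for Impg1 to 0.29 ± 0.52 for Prom1, with Prph2 at -0.29 ± 0.63, Rom1 at 0.02 ± 0.68, Rp1 at -0.17 ± 0.67, Rp1l1 at 0.01 ± 0.48, Cdhr1 at -0.04 ± 0.46, Tulp1 at 0.26 ± 0.45 and Impg2 at 0.20 ± 0.49. edgeR called 0 of 9 (adjusted p from 0.787 to 0.998) and 0.0% of all genes, with 0 of the 9 and 7.22% of all genes at an unadjusted p under 0.05, and DESeq2 called 0 of the 9 and 0.141% of all genes. Without the filter on low counts Impg1 alone passed in edgeR (adjusted p = 2.88e-05), where 0.928% of all genes did. Marker lists of other cells differed in both directions between the genotypes at P4. The 12 ganglion cell markers, of the cells the transgene is aimed at, were lower in Kir2.1 for 12 of 12 (median -1.15), with sums of 1417 and 894 CPM in wild type and 715, 263 and 735 CPM in Kir2.1. The bipolar markers were lower for 10 of 10 (median -2.03), with sums of 182 and 446 CPM in wild type and 126 to 157 CPM in Kir2.1. Vascular markers were lower for 9 of 10 (median -1.07), horizontal cell markers for 5 of 5 (median -0.43) and amacrine markers for 7 of 10 (median -0.10). Genes of dividing cells were higher for 10 of 10 (median 0.31), with sums of 2576 and 949 CPM in wild type and 2138 to 2688 CPM in Kir2.1. Microglial markers were higher for 10 of 10 (median 0.30), with sums of 435 and 239 CPM in wild type and 327 to 519.7 CPM in Kir2.1. For both lists wild-type replicate 1 lay inside the Kir2.1 range, and replicate 2 alone lay below it. Mueller glia markers were higher for 8 of 10 (median 0.28) and pigment epithelium markers for 4 of 7 tested (median 0.30). Of the photoreceptors' own genes, the rod phototransduction genes were lower for 12 of 12 (median -0.61), with sums of 802 and 1786 CPM in wild type and 830.5 to 1092 CPM in Kir2.1. The other outer segment and surface genes were lower for 11 of 18 (median -0.11). Genes of the connecting cilium were higher for 8 of 8 (median 0.23), photoreceptor transcription and chromatin factors for 10 of 12 (median 0.32) and cone phototransduction genes for 8 of 10 (median 0.10). None of these genes passed in edgeR, and the part of the cell makeup in the values of the 9 genes was not tested. The sign of the 9 differences changed with the wild-type library kept: without replicate 2 all 9 were positive (53.7% of all genes) with a median of 0.94, and without replicate 1 none was (51.5% of all genes), with a median of -0.62. The Kir2.1 effect at P8 exceeded that at P4 by 0.59 for Prom1 to 1.91 for Impg1, positive for 9 of 9 genes against 49.5% of all genes. None of these 9 differences, which are also those between the age effects of the genotypes, passed in edgeR, and 0.0% of all genes did (adjusted p = 0.9998). Their unadjusted p ran from 0.111 to 0.407, with 3.09% of all genes under 0.05, and DESeq2 called 0 of all genes. Without the filter 6 of 9 passed, where 0.372% of all genes did. Without wild-type P4 replicate 2 only 2 of 9, Prph2 and Cdhr1, were positive (46.9% of all genes), with a median of -0.10. The age and genotype comparisons share libraries and are not independent of each other.

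In the authors' deposited table for P4 all 9 log2 fold changes were negative, from -0.10 for Impg2 to -1.54 for Impg1, and Rp1l1 alone passed (-0.60, adjusted p = 0.0458) where 2.27% of genes did. In the authors' deposited table for P8 all 9 were positive, from 1.30 for Rp1l1 to 1.86 for Rom1, and again Rp1l1 alone passed (adjusted p = 0.0482) where 7.27% did. Which libraries entered the authors' deposited table is not stated. The values of the authors' deposited table at P8 were each above those of the fit to all 11 libraries given here, while the same fit without wild-type P8 replicate 3 gave 1.31 for Rp1l1 to 1.86 for Rom1.

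Per kilobase of exon, the order of the 9 genes changed between the ages. In Kir2.1 P8 the disc rim genes led, with Rom1 at 222 ± 5.38 CPM per kilobase (SD, n = 3) and Prph2 at 183 ± 4.57, followed by Cdhr1 at 166 ± 7.18, Rp1 at 132 ± 10.6, Tulp1 at 98.0 ± 7.19, Prom1 at 85.9 ± 12.8, Rp1l1 at 52.5 ± 4.19, Impg2 at 50.04 ± 5.62 and Impg1 at 31.1 ± 0.447. Neighbours in that order did not overlap, except Tulp1 with Prom1 and Rp1l1 with Impg2. In Kir2.1 P4 the cadherin led, with Cdhr1 at 30.4 ± 8.88, Tulp1 at 27.4 ± 3.50 and Rom1 at 27.1 ± 5.04 overlapping, and Prph2 stood at place 5 with 17.3 ± 4.23. Impg1 was last at 1.36 ± 0.237, below every level of Rp1l1, its neighbour at 10.5 ± 1.81. Above that gap each gene overlapped the next, and the same held in wild-type P4 above Impg1, with Cdhr1 from 19.6 to 43.0 and Impg1 from 0.236 to 5.76 CPM per kilobase. In wild-type P8 every gene overlapped the next, from Rom1 at 25.2 to 240.8 to Impg1 at 4.47 to 29.9 CPM per kilobase.

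Set against Crx, a photoreceptor factor, the 9 genes differed in how far their ratio to it grew with age. Crx was at 148 and 235 CPM in wild-type P4, at 202, 338 and 302 CPM in Kir2.1 P4, at 181, 527 and 962 CPM in wild-type P8 and at 914, 1006 and 959.7 CPM in Kir2.1 P8. From Kir2.1 P4 to Kir2.1 P8 the mean ratio to Crx grew 6.58 times for Impg1, 3.08 times for Prph2, 2.89 times for Rp1 and 2.36 times for Rom1. It grew 1.60 times for Cdhr1, 1.42 times for Rp1l1 and 1.32 times for Impg2, with the 3 Kir2.1 P8 libraries above the 3 Kir2.1 P4 libraries for each of these 7. The libraries overlapped for Prom1, with 1.29 times, and Tulp1, with 1.01 times. In wild type the mean ratio went from 0.0473 at P4 to 0.113 at P8 for Impg1, from 0.306 to 0.477 for Prph2, from 0.891 to 1.46 for Rp1 and from 0.195 to 0.291 for Rom1. It went from 0.683 to 0.785 for Cdhr1, 0.382 to 0.436 for Rp1l1, 0.563 to 0.596 for Prom1, 0.449 to 0.493 for Impg2 and 0.770 to 0.689 for Tulp1. The wild-type ages overlapped for every gene but Impg1. Its wild-type P4 ratios were 0.00576 and 0.0889, the latter next to the lowest at P8. At P8 the ratios of the genotypes overlapped for all 9 genes, and the Kir2.1 mean was 0.949 times (Rp1l1) to 1.21 times (Rom1) the wild-type mean, where the CPM themselves stood at fitted folds of 1.72 to 1.92. Wild-type P8 replicate 1, lowest in CPM for all 9, had the highest P8 ratio for Cdhr1 (0.891), Rp1l1 (0.530), Tulp1 (0.748) and Impg2 (0.543). It had the lowest P8 ratio for Prph2 (0.380), Rom1 (0.211), Rp1 (1.12), Prom1 (0.541) and Impg1 (0.0895). Wild-type P4 replicate 2 had a Prph2 ratio of 0.423 against 0.160 to 0.205 in the other P4 libraries. These ratios are descriptions, and no test was made on them. Which cells of the whole retina supplied the Crx reads was not measured, so the ratios are not levels per photoreceptor.

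**Figure D3:**
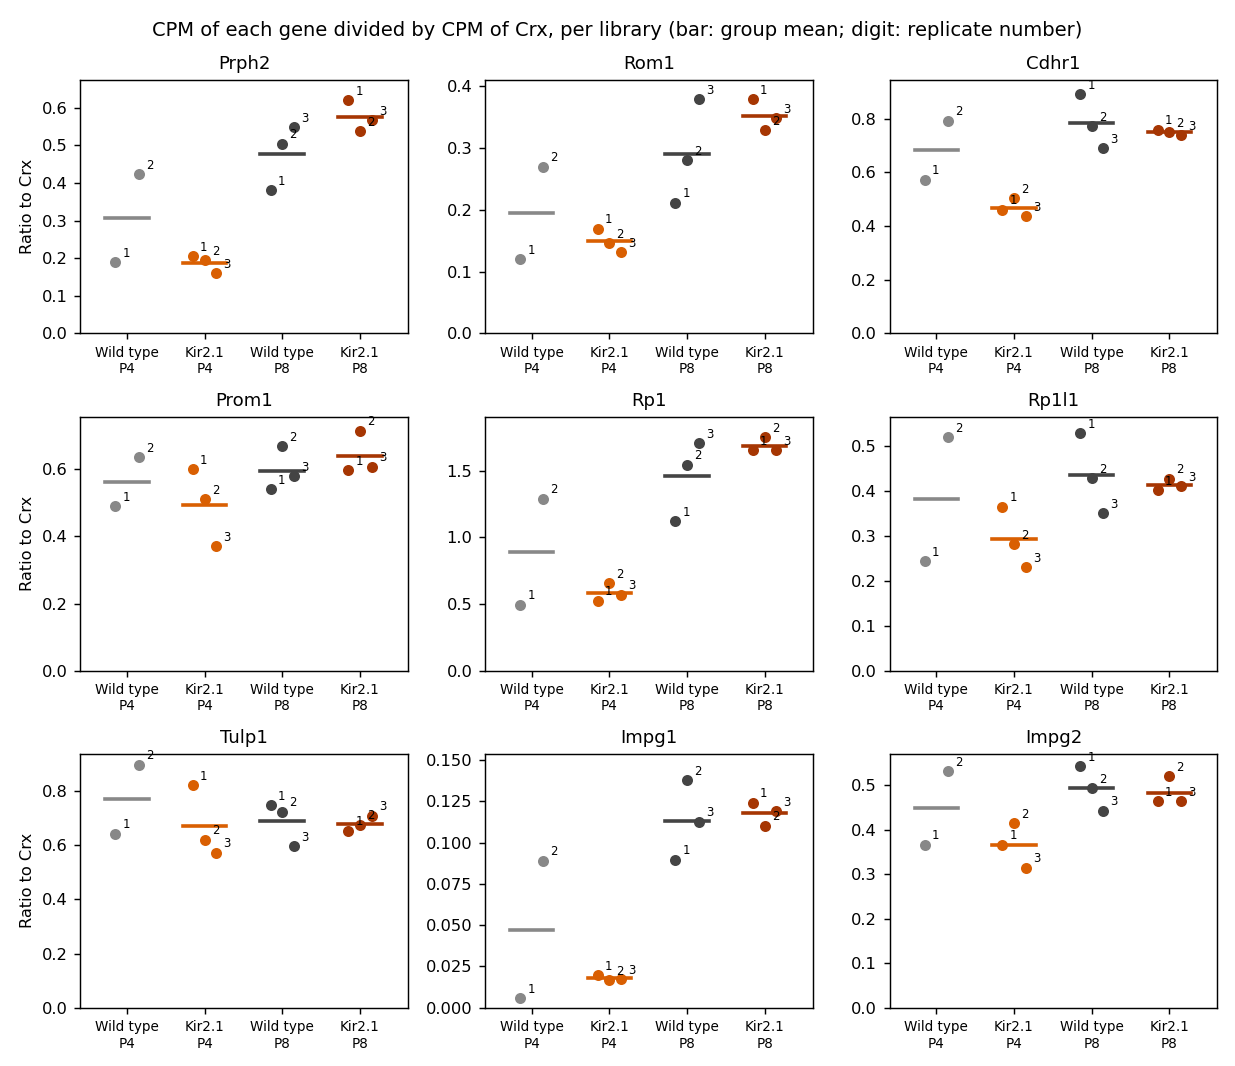
CPM of each of the 9 genes divided by the CPM of Crx in the same library, with a bar at the group mean and the replicate number beside each point. For Impg1, Prph2, Rp1 and Rom1 the Kir2.1 P8 points lie well above the Kir2.1 P4 points, whereas those of Prom1 and Tulp1 overlap them, and the genotypes overlap at P8 in every panel.

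Other genes of the photoreceptor were described by lists from general knowledge. Averaged over genotypes, 16 of 18 other outer segment and photoreceptor surface genes rose with age (median 2.16), among them the rod cation exchanger Slc24a1 (3.84) and the guanylate cyclase Gucy2f (3.35). Crb1 (0.24) and Guca1a (0.71) did not pass. All 12 rod phototransduction genes rose (median 2.96), among them the phosphodiesterase subunit Pde6a (4.11) and the channel subunit Cnga1 (3.66). Of 10 cone phototransduction genes 4 rose (median 0.65), among them Arr3 (1.84) and Gnb3 (1.25). Opn1mw passed as well, but with 0 CPM in 3 of the 5 P4 libraries, at most 0.592 CPM in the other two and 0.407 to 1.67 CPM at P8, so the size of its fitted change depends on the prior count and is not given. Of 12 photoreceptor transcription and chromatin factors 7 rose and 1 fell, the highest being Nrl (2.52), Nr2e3 (2.35) and Samd7 (2.17) and the lower one the cone receptor Rxrg (-0.79). Of 8 genes of the connecting cilium, the bridge to the outer segment, 5 rose (median 0.63), led by Rpgrip1 (1.69), Mak (1.31) and Cep290 (1.15). Among 7 relatives of the 9 genes that act outside the outer segment, Tub rose (1.02) and the doublecortin genes Dcx (-1.71) and Dclk1 (-0.83) fell. Each of these calls is an edgeR adjusted p under 0.05, where 22.8% of all genes passed. In the genotype comparisons at P4 and P8, 0 genes of these 6 lists passed. At P8 the differences were positive for 16 of 18, 12 of 12, 5 of 10, 12 of 12, 8 of 8 and 2 of 7 genes of the lists in the order above, with medians of 0.67, 0.79, 0.08, 0.61, 0.44 and -0.52.

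**Figure D4:**
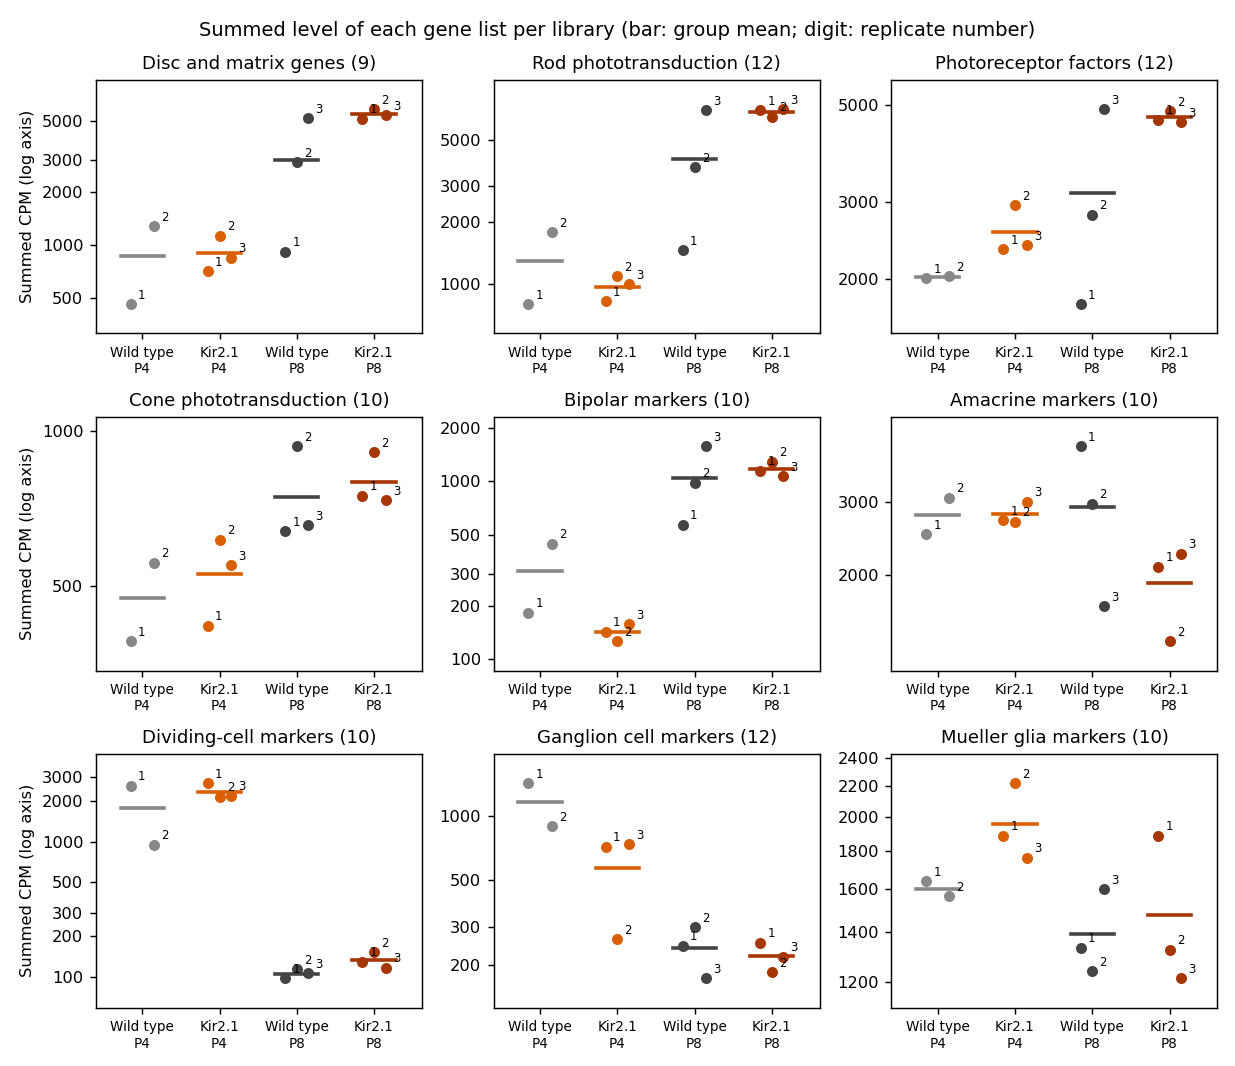
Summed CPM of the 9 genes and of other gene lists in each library, with a bar at the group mean and the replicate number beside each point. The sum of the 9 genes went from 464 to 1279.8 CPM at P4 to 5163 to 5853 CPM in Kir2.1 P8, with wild-type P8 replicate 1 at 916 CPM.

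The summed level of the 9 genes was 464 and 1279.8 CPM in wild-type P4, 714, 1130.4 and 846 CPM in Kir2.1 P4, 916, 2923 and 5201 CPM in wild-type P8 and 5163, 5853 and 5391 CPM in Kir2.1 P8. The 12 rod genes summed to 802 and 1786 CPM in wild-type P4, 830.5 to 1092 CPM in Kir2.1 P4, 1466, 3689 and 6978 CPM in wild-type P8 and 6508 to 7082 CPM in Kir2.1 P8. Both sums were lowest in wild-type P8 replicate 1 among the P8 libraries and highest in wild-type P4 replicate 2 among the P4 libraries. Markers of other cells moved with age as well. All 10 genes of dividing cells fell (949 to 2688 CPM in sum at P4, 98.0 to 153 CPM at P8), all 10 bipolar markers rose (126 to 446 CPM at P4, 571 to 1577 CPM at P8), and 11 of 12 ganglion cell markers fell while Nefh rose, averaged over genotypes. Of microglial markers 7 of 10 fell, of Mueller glia markers 5 fell and 2 rose of 10, of vascular markers 3 rose and 1 fell of 10, of amacrine markers 1 rose and 3 fell of 10, of horizontal cell markers 2 rose and 1 fell of 5, and of the 7 pigment epithelium markers tested 1 fell. None of the markers of dividing, bipolar and ganglion cells was at 0 in a library that stood apart, and the part of the cell makeup in the changes of the 9 genes was not tested.

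The genes whose pattern over the 11 libraries lay closest to the mean pattern of the 9 were, among 10313 genes of at least 10 CPM, Pdc, Rgs9bp, Abca4, Mpp4, Pde6g, Pla2r1, Cerkl and Pcare. Their centred log2 CPM differed from that mean by a root mean square of 0.178 for Pdc to 0.218 for Pcare, where the median gene differed by 1.42. The 9 genes themselves differed from their own mean by 0.206 for Rom1 to 0.469 for Tulp1, and by 0.990 for Impg1. Among the 9, the closest in pattern were Cdhr1 and Impg2, which differed by 0.142, and Prph2 and Rp1, which differed by 0.145. Prph2 and Rom1 differed by 0.192, nearer than most pairs, whereas Rp1 and Rp1l1 differed by 0.529 and Impg1 and Impg2 by 1.29. None of these partner pairs was the closest of all. These distances describe 11 libraries that share 4 groups and carry no test.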

How the data were processed

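RNA was sequenced from 11 retina libraries. The authors deposited, for each library, raw read counts for every Ensembl gene. Per the submitters' processing notes, cutadapt 1.18, STAR 2.5.0c, SAMtools 1.9, bedtools 2.26.0, HTSeq 0.6.1, DESeq2 and the build mm10 were used; the annotation and strand setting are not given in the sources used here. Records that name no gene (74.6% to 79.8% of a library) were left out. The authors also deposited a comparison of the genotypes for each age: per the file headers, it holds a mean normalized count (a signal in the authors' scaling), the log2 fold change and its SE, the test statistic (a score in the authors' table), and raw and adjusted p-value columns.

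Counts were filtered with filterByExpr by group (18188 genes kept), scaled by TMM and fitted in edgeR 4.0.16 (R 4.3.3) with quasi-likelihood, 4 group means and all 11 libraries (7 residual degrees of freedom, common BCV 0.247). Adjustment was by Benjamini-Hochberg across the tested genes, at a threshold of 0.05, and the procedure was tested on simulated data. The simulated libraries varied less than these, so that run does not settle the calls made here. Each SE given with an edgeR change is its absolute log2 value over the square root of the quasi-likelihood F. The 95% intervals were computed from that SE. Alternatives were DESeq2 1.42.0 and its size factors, no filter, a fit to the compared groups alone, a replicate block and leaving out each library. Symbols matched 46488 of the 47069 IDs; 10535 genes had no count. Exon lengths and coordinates came from GENCODE M21 (GRCm38), promoters from RefSeq (GRCm38.p6). The 9 genes and the lists were chosen with earlier results of these data known. From each list the text names at most the 3 highest and 3 lowest changes that passed, and the 8 genes closest in pattern to the mean of the 9; some genes this rule names are not reported here, and Crb1 and Guca1a were named after their values were seen.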

Additional observations from a re-analysis of the deposited data

How the results depend on the processing

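The age effect in Kir2.1 and the age effect averaged over genotypes kept their direction for all 9 genes under every alternative run, and 9 of 9 genes passed in each except in Kir2.1 without Kir2.1 P4 replicate 1, where 8 did; leaving out 1 library at a time gave 8 to 9 and 9 to 9. In wild type the count of genes passing was 0 to 9 over the same libraries, 2 in the DESeq2 test and 9 without the filter on low counts. Without the filter it was also 1 for Kir2.1 over wild type at P4 (Impg1, -1.14, adjusted p = 2.88e-05 in edgeR), 9 at P8 and 6 for the difference of these effects; the infinite prior degrees of freedom of that fit are given beside the P8 result. With DESeq2 size factors in edgeR, and with only the compared groups fitted, no count of calls for the 9 genes moved. Over all genes, edgeR called 0, 0, 798 and 0 at P4, at P8, with age in wild type and for the difference of effects, against 21, 1, 1444 and 0 in DESeq2 and 339, 447, 2058 and 136 without the filter. With only the wild-type groups fitted, 113 genes changed with age. Without either wild-type P4 library the lone one left is assumed to vary like the other groups. Without wild-type P4 replicate 1, edgeR called 6 genes at P4, 163 with age in wild type, 2133 with age averaged over genotypes (4140 with all libraries) and 1 for the difference of effects. Leaving out replicate 2 of wild type at P4 raised the wild-type age count to 1339, leaving out replicate 1 at P8 raised it to 1299, and 219 genes were called at P8 without wild-type P8 replicate 3. The 3029 genes that changed with age in Kir2.1 became 1764 without Kir2.1 P4 replicate 1, 2012 without Kir2.1 P8 replicate 2 and 1841 without Kir2.1 P8 replicate 3.

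At P4 the sign of the genotype difference was not stable. Leaving out 1 library gave ranges of -0.94 to 0.89 for Prph2, -0.63 to 1.20 for Rom1, -0.87 to 1.182 for Rp1, -0.62 to 1.14 for Rp1l1, -0.15 to 0.90 for Prom1, -0.50 to 0.63 for Cdhr1, -0.21 to 0.94 for Tulp1, -2.07 to 2.52 for Impg1 and -0.28 to 0.93 for Impg2. Rp1l1 was at -0.0018 without the filter. For the difference of the genotype effects the ranges were -0.33 to 1.84 for Rom1, -0.32 to 1.85 for Rp1, -0.28 to 1.48 for Rp1l1, -0.025 to 1.17 for Prom1, -0.10 to 1.08 for Tulp1, -1.75 to 2.85 for Impg1 and -0.10 to 1.17 for Impg2. The cause was not tested.

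Titles number the replicates alike in each group. The main fit did not pair the libraries by number. Deviations from the group means of same-numbered libraries correlated over 0.1 in 3 of 15 pairs (-0.08 to 0.14). With so few libraries per group, this cannot tell whether the numbers pair them. With a replicate block, Rom1 at P4 was at -0.031 and the median difference of the 9 genes at P8 was 1.07, with 8 of 9 at an unadjusted p under 0.05 against 1399 of all 18188 genes, and no count of calls for the 9 genes at an adjusted p changed.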
